A study of Caenorhabditis elegans with 2 samples.

Results

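The regions described here are the 280 LET-607 binding regions ranked 21 to 300 by deposited signal, out of a list that the authors thresholded on replicate agreement. The rest of that list is the 20 strongest regions, which lie above them, and the 1188 weaker regions below. A further 28512 candidate regions of the pooled replicates stayed outside it. The worms were Caenorhabditis elegans of strain YL651, which carries the let-607 allele tm1423, the unc-119 allele ed3 and the integrated transgene vrIs121, a fosmid with LET-607 fused at its C terminus to GFP and FLAG, plus unc-119 (+). Animals of both sexes were pooled, synchronised as starved first-stage larvae after bleaching, and collected whole as young adults at 49.5 hours. Sheared chromatin of 200 to 800 bp was precipitated with an antibody against GFP. There is 1 group of 2 biological replicates from 1 transgenic line, with no untreated or untagged worms among the samples analysed here, so no condition is compared, and whole animals do not show in which tissue a region was occupied. The members were chosen by their pooled signal, and signal, rank and q-value are therefore given as descriptions only. Regions are not replicates of worms, so no p-value is given anywhere, and the 95% Wilson intervals on shares cover counting error over regions only.

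LET-607 is a basic leucine zipper protein of the CREB3 family. In mammals, proteins of this family are made as membrane proteins of the endoplasmic reticulum (ER), are cut in the Golgi, and then enter the nucleus, where they act on genes for secretory capacity. Such factors are known to recognise DNA elements with an ACGT core, among them the cAMP response element, the E-box-like CACGTG and the elements of the unfolded protein response. In the tier described here, genes of translation, chromatin, mitochondria and other processes stand beside secretory ones.

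The DNA at some of these summits is shown first, because elements with an ACGT core occur in this tier at genes with and without a part in secretion. Each window reaches 50 bp to either side of a summit and is read from the plus strand of ce11. Capitals mark the element, which is TGACGTGG at Y25C1A.8, at the cargo receptor gene erd-2.1, at aqp-10 and in an intron nearest to the start of crh-2. The window at Y39B6A.5 (signal 404.9) also holds it and is named only. It is read as CCACGTCA where it lies on the minus strand. Capitals mark CACGTG at C24F3.2, cgh-1 and the region between cls-2 and R107.5, which were taken from summits whose promoter genes are all outside secretion. This C24F3.2 summit lies in a single deposited interval with the summit of tram-1 and C24F3.2, which counts as secretory. They mark AGACGCAG, read as CTGCGTCT on the minus strand, at sec-24.1, at the region of tram-1 and C24F3.2, and near ncl-1. The windows are, in that order, chrII:3077080-3077180, chrX:10158832-10158932, chrII:9770223-9770323, chrII:5182616-5182716, chrIV:10222391-10222491, chrIII:7498419-7498519, chrIII:9054006-9054106, chrIV:11566276-11566376, chrIV:10222191-10222291 and chrIII:7728679-7728779. The windows of crh-2 and ncl-1 are intronic and the others are intergenic.
Y25C1A.8: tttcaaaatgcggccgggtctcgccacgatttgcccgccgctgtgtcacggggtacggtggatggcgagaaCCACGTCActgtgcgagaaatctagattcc
erd-2.1: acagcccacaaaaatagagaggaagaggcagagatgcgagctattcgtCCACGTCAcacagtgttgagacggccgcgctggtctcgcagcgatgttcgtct
aqp-10: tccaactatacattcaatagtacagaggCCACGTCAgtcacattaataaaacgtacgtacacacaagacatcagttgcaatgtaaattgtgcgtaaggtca
near crh-2: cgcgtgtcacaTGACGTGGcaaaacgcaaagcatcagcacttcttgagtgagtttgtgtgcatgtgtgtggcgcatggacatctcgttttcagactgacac
C24F3.2: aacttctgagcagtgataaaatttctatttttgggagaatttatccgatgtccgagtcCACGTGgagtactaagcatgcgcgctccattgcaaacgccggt
cgh-1: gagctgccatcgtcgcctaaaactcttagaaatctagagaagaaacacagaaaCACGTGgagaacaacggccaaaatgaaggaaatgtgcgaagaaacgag
cls-2 and R107.5: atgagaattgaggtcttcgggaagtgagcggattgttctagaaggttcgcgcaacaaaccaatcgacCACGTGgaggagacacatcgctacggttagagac
sec-24.1: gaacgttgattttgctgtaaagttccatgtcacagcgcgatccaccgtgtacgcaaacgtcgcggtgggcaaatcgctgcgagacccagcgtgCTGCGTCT
tram-1 and C24F3.2: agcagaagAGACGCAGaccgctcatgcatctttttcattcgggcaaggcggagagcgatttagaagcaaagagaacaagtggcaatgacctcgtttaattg
near ncl-1: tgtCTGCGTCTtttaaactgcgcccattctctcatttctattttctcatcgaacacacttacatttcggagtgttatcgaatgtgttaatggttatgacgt

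In these windows the element lies at different distances from the summit. The centre of CACGTG is 5.5 bp from the summit at cgh-1 and 10.5 bp at C24F3.2. The centre of TGACGTGG is 1.5 bp away at erd-2.1, 18.5 bp at aqp-10 and 24.5 bp at Y25C1A.8. AGACGCAG lies 43.5 bp away near ncl-1 and 46.5 bp away at sec-24.1, at the edge of the window. A match of letters is a description of the window and does not show which bases were bound.

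The deposited signal is the peak caller's own score. No source used here states its formula, so it serves only to order regions within a list. Over the 280 regions it ran from 244 to 1299.7, with a median of 370 (quartiles 291 and 511), so the tier spans a wide range and its lower part is densely packed. The limits of the tier are not gaps in the data. Rank 21, an intronic region on chromosome X, had a signal of 1299.7, against 1383 at rank 20 in an intron nearest to ppfr-1. Rank 300, an intronic region on chromosome III nearest to tpst-1, had 244.4, against 244.2 at the next rank in the promoter of ntl-2. All 280 regions carried the highest deposited −log10 q-value of the list, as did 466 of the 1188 lower regions (39.2%). The q-value therefore does not order regions within the tier.

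**Figure D1:**
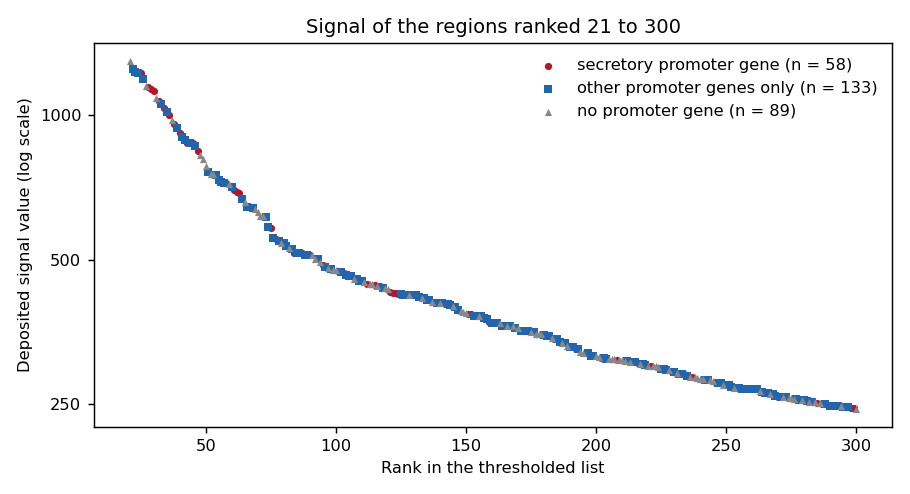
Deposited signal (log scale) of each of the 280 regions against its rank in the thresholded list, by kind of promoter gene: secretory (58 regions), other genes only (133) and none (89). Secretory regions run from 1225 down to 246, those with other genes only from 1249.7 to 247, and those with none from 1299.7 to 244.

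A protein-coding gene was counted when a summit lay in the window from 1000 bp upstream to 200 bp downstream of 1 of its starts in the annotation. Positions below are relative to a start, negative being upstream. By this rule 242 of 19973 protein-coding genes (1.21%) had a summit of the tier, and 960 (4.81%) had any summit of the thresholded list. These shares over all genes are the background for every list count below. Fixed lists of the secretory pathway held 32 of the 242 genes (13.2%), beside 86 of the 960 genes with any thresholded summit (8.96%) and 328 of all 19973 (1.64%). A further 27 genes were assigned a secretory or membrane traffic role from their RefSeq product after the members were known, among them mans-3, an alpha-mannosidase, T14G8.3, annotated as Hypoxia up-regulated protein 1, and C18E9.2, annotated as Sec62. The other 183 genes, or 75.6% (69.8 to 80.6), had neither. Of these 183, 21 shared their region with a secretory gene, and 162 lay at regions with no secretory promoter gene. Outside genes made up 68.9% of the genes at ranks 21 to 100 (51 of 74), 78.7% in the next 100 ranks (74 of 94) and 79.2% in the last 100 (61 of 77). Those intervals overlap (57.7 to 78.3, 69.4 to 85.8 and 68.9 to 86.8).

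**Figure D2:**
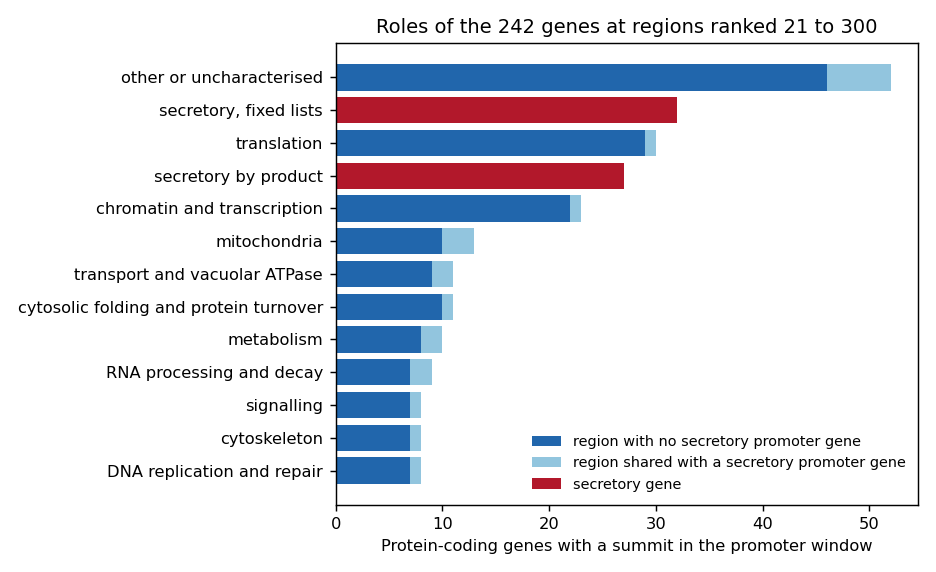
Number of protein-coding genes with a summit of ranks 21 to 300 in the promoter window, by role. Bars in dark blue count genes at regions with no secretory promoter gene, light blue genes that share a region with one, and red secretory genes. Translation (30 genes) and chromatin and transcription (23) are the biggest named roles outside secretion. Roles were assigned to member genes alone, so the bars have no share over all genes beside them.

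Genes of translation formed the biggest named role outside secretion, with 30 of the 242 genes, 29 of them at regions with no secretory gene. Roles were assigned to member genes alone, after membership was known. No share over all protein-coding genes can therefore be set beside the count of this or any other role. The cytosolic ribosomal protein list had 13 member genes of 82 annotated (15.9%), beside 1.21% of all protein-coding genes, and 26 of the 82 had any thresholded summit. The strongest was rpl-1, a protein of the large subunit, whose region chrI:2876402-2876874 had a signal of 1249.7 at rank 22. Its signal was 496 in replicate 1 and 756 in replicate 2, which placed it at rank 30 and rank 20 of these lists. The summit lay at -293 bp from rpl-1 and at -331 bp from the divergent gene Y71F9AL.9, annotated with a CUE domain.

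Further large-subunit genes followed at ranks 60 to 81. The region of rpl-3 at chrIII:3867428-3867709 had a pooled signal of 709, with 329 in replicate 1 and 386 in replicate 2. At rpl-20, whose region chrIV:4749954-4750191 also serves Y17G9B.5, the annotated homologue of the mitochondrial protein ECSIT, the replicates gave 263 and 278 for a pooled 543. At rpl-15, shared with K11H12.8, they gave 242 and 286 for a pooled 535. The remaining 9 ribosomal genes had signals from 464 at rpl-35 down to 249 at rpl-41.2, and only rpl-7 shared its region with a secretory gene, rab-11.1. At rank 259 a single summit lay at -287 bp from rpl-24.1 and -323 bp from rps-10, so both genes count on the same signal of 269.

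Other steps of translation were represented by few genes each. Of 50 annotated translation factors 4 were members (8%) and 11 had any thresholded summit. The region of eef-2, elongation factor 2, reached 763, with 346 in replicate 1 and 419 in replicate 2. Its summit was in the 5' UTR, at 22 bp from the eef-2 start and -287 bp from clsp-1, the gene of the replication checkpoint protein claspin. The elongation factor genes eef-1G (402) and eef-1A.2 (269) and the poly(A)-binding protein gene pab-2 (269) were lower. Among 32 aminoacyl-tRNA synthetase genes, lars-1 for leucine (312) and cars-1 for cysteine (311) were members and 5 had any thresholded summit. Name patterns miss some such genes, as C37C3.18, annotated as initiation factor 5 (369.98), and T16G1.9, annotated as a subunit of initiation factor 3 (303), are members counted with translation by product.

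After rpl-1, the strongest regions counted with translation were those of cgp-1, puf-9 and vgln-1. The region of puf-9, a Pumilio-family RNA-binding protein, was rank 24 with a signal of 1226 at chrX:5841053-5841486, and had 557 in replicate 1 and 679 in replicate 2. That of cgp-1, a GTP-binding protein gene counted here with translation, was rank 23 with 1230.2, but its summit lay at -940 bp from cgp-1, and the start of W03F9.1 was slightly nearer, with the summit at 936 bp. The vigilin gene vgln-1, whose protein has KH domains, shared its region of 900.1 at rank 41 with C08H9.16, and its replicates gave 324 and 557. A second member region of 348 at rank 181 lay at -139 bp from C08H9.16 alone. Other regulators counted with translation ranked lower, among them nhl-2 (472) at rank 102, ifet-1, annotated as a translational repressor (369), at rank 162 and larp-1 (281) at rank 243, named after their values were seen.

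Chromatin and transcription genes numbered 23, and 22 of them were at regions with no secretory gene. The strongest were ztf-7, a zinc finger gene, and epc-1, whose yeast and mammalian counterparts are subunits of a histone acetyltransferase complex. The ztf-7 region at chrV:9789820-9790207 had a signal of 1058, with 499.95 in replicate 1 and 555 in replicate 2. The epc-1 region at chrIII:12608590-12608950 had 939, with 428 and 517, and its summit also lay at -514 bp from Y111B2A.12, a WD-repeat gene. Of 169 genes in the fixed list of histones and chromatin, 10 were members (5.92%) and 16 had any thresholded summit, so 6 had one outside the tier alone. Its strongest members were hmg-1.1, an HMG-box gene (517), his-37, annotated as histone H4 (425), set-16, a histone methyltransferase of the MLL type (422), and cbp-1, the CBP/p300 acetyltransferase gene (399.7). Histone genes have near-identical copies, so the assignment to his-37 is uncertain.

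Several further chromatin genes are named here after their values were seen. The region of spat-3, annotated as a RING2-type ubiquitin ligase, had a signal of 413. The genes lin-54 (356), lin-9 (329) and lin-53 (246) encode proteins of the DREAM complex, a repressor of cell cycle and germline genes. The region of lin-54 is shared with rpl-12, whose start is nearer, with the summit at -21 bp, and that of lin-53 with nra-2, annotated as nicalin. The histone methyltransferase gene met-1 reached 336, and set-21 reached 281 at a region shared with rpl-7A. The fixed list of 530 transcription factors had ztf-7 and the nuclear receptor gene nhr-35 (275) as members, which is 0.377% beside 1.21% of all genes. Any thresholded summit lay at 25 of the 530 (4.72%, beside 4.81%). This list is a name pattern and misses some such genes. Members outside it are let-607, pdtf-1 and drap-1, annotated as transcription factors, and gmeb-1, annotated with a SAND domain.

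RNA polymerase and RNA processing genes stood at several high ranks. The gene rpb-8, annotated as a subunit shared by all nuclear RNA polymerases, had a region of 646, and the replicates gave 219.5 and 432. The summit lay at -500 bp from the rpb-8 start, in coding sequence of a gene or transcript that was not recorded. Y25C1A.8, annotated as a ZRANB2-type zinc finger protein, had 877 at rank 44, and mog-4, a pre-mRNA splicing helicase, had 863 at rank 46. Both were nearly even between replicates, with 430.3 and 444 at Y25C1A.8 and 419 and 443 at mog-4. The DEAD-box helicase gene cgh-1, whose protein acts in P bodies and germ granules, had 734, with 281 in replicate 1 and 462 in replicate 2. The decapping scavenger gene dcs-1 lies at a region of 919 that it shares with sec-23 of the COPII coat, and its own start is the nearer one, with the summit at -171 bp. The fixed list of RNA processing and decay had 1 member of 144, cgh-1 (0.694%, beside 1.21% of all genes). Any thresholded summit lay at 15 of the 144 (10.4%, beside 4.81%). Outside that list, mog-4, dcs-1 and the other 6 genes of this role were assigned by product.

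Signalling genes at the top of the tier included a phosphatase, a kinase and a G protein. C24F3.2, a protein tyrosine phosphatase gene, had 2 members whose summits lay 200 bp apart in a single deposited interval, at rank 30 with 1123.5 and at rank 35 with 1016. The first of these also lies at -954 bp from tram-1, a translocon-associated gene. Both summits fall in the same region of each replicate, with 559 in replicate 1 and 605 in replicate 2. Of 266 genes in the fixed signalling list 2 were members, gsa-1 and ftt-2 (0.752%, beside 1.21% of all genes). Any thresholded summit lay at 15 of them (5.64%, beside 4.81%). The kinase gene gakh-1 had 725, and it is counted under signalling by its kinase domain although the mammalian family acts in uncoating of clathrin vesicles. The region of gsa-1, the gene of a stimulatory G protein alpha subunit, had 586, with 270.2 in replicate 1 and 317 in replicate 2, and a GC content of 71.3%, the highest of the 280 windows.

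Metabolic and membrane genes were among those at other high ranks. Members were 0.840% of the fixed list of fatty acid and lipoprotein metabolism and 0.913% of that of detoxification. Both lie below the 1.21% of all genes, and the list of channels and transporters had 1.33%. At rank 42, ltah-1.2, an M1 aminopeptidase gene, had 889, and a second member at this gene, at rank 281 with 254, lay in coding sequence. The acyl-CoA synthetase gene acs-4 had 751, and K01G5.10, a hydrolase gene, shared a region of 669 with tasp-1, a threonine aspartase gene. The start of tasp-1 was the nearer, with the summit at -41 bp against -744 bp for K01G5.10. The aquaporin gene aqp-10 had 614, with 267 in replicate 1 and 342 in replicate 2, the same rank of 70 in both. Next to F27D4.4, a zinc finger gene, bckd-1B for a subunit of branched-chain keto acid dehydrogenase had 642. That summit was nearer to F27D4.4, at -224 bp, than to bckd-1B, at -682 bp. Genes with TLC domains appeared at Y48G8AL.13 (728) and at fld-1 (583). The second shares its region with ndua-2 of respiratory complex I and the secretory gene dnj-29. There dnj-29 had the nearest start, with the summit at -158 bp, against -370 bp for ndua-2 and -928 bp for fld-1. R10E11.5, annotated with an apolipoprotein-type domain, had 1191 at rank 26, with 522 and 668 in the replicates. Its summit lay at -90 bp from the start and in coding sequence. The annotation class does not record to which gene or transcript that sequence belongs. F55A11.1, an EF-hand gene, shared a region of 1135 with syx-5, and its start was the nearer, with the summit at -143 bp against -376 bp for syx-5. The beta tubulin gene tbb-1 shared a region of 842 with rib-2, counted as secretory by product. The rib-2 start was the nearer, with the summit at -135 bp against -243 bp for tbb-1. The genes dct-16 (555) and dct-11 (547), named for control by DAF-16, complete the outside genes down to rank 80.

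Mitochondrial genes numbered 13, at ranks 68 to 278 and with a median signal of 406. Of 64 genes in the list of the respiratory chain and mitochondrial import 4 were members (6.25%): the ATP synthase gene atp-3 (463), the cytochrome oxidase genes cox-5A (362) and cox-5B (264), and the chaperonin gene hsp-60 (257). The hsp-60 summit at chromosome III 1619122 lay at -620 bp from hsp-60 and at -193 bp from the divergent Y22D7AL.10, annotated as the 10 kDa mitochondrial heat shock protein, so the partner subunits of the chaperonin share 1 region. Its signal was 122 in replicate 1 and 134 in replicate 2. No gene of the mitochondrial ribosomal list (70 genes, by name) was a member and 2 had any thresholded summit, although R186.8 (386), annotated as a mitochondrial ribosomal protein, is a member outside that name pattern.

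Proton pumps, transporters, folding factors and cytoskeletal genes were each represented by a few members. Of 22 vacuolar ATPase genes 3 were members, vha-1 (383, shared with the glycosyltransferase gene sqv-3), vha-13 (303) and vha-12 (248). Of 225 channel and transporter genes 3 were members, aqp-10, the zinc transporter gene zipt-7.2 (451) and the sodium pump gene eat-6 (291). Cytosolic folding was represented by bag-1 (353), cct-8 of the TRiC chaperonin (319) and hsp-1, a constitutive Hsp70 (248), which are 3 of 60 listed genes. The summit at rank 165 lay between the Hsp70 genes F44E5.4 and F44E5.5, which are divergent near-identical copies, so its assignment is uncertain. The proteasome and ubiquitin list had 1 member of 420, rpn-1, at a region it shares with ribo-1. Of 118 cytoskeletal and muscle genes 4 were members, with ifc-2 at 369.6, dlc-1 at 256 and act-5 at 248 besides tbb-1.

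Single members came from several other lists. The 14-3-3 protein gene ftt-2 had 295. From nuclear transport came the importin gene imb-3 (270.5, 1 of 39), from immunity the galectin gene lec-6 (419, 1 of 386), from fatty acid metabolism acs-4 (1 of 119), and from detoxification ugt-49 (478) and gst-43 (442), 2 of 219. The fixed list of chemoreceptors had 1 member of 1357 genes. None of 293 cuticle and extracellular matrix genes, 94 cell cycle genes, 60 autophagy and lysosome genes, 58 genes of amino acid and energy metabolism or 23 phospholipid synthesis genes was a member. In that order these lists had 2, 7, 10, 6 and 4 genes with any thresholded summit, all outside the tier. Over all protein-coding genes 1.21% were members, a share at which a short list can hold none. No list was tested against the rest.

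Of the 242 genes, 52 were other or uncharacterised. They include T04H1.13, which shares a region of 412 with the DNA repair gene rad-50 and slfl-5, and C44C10.11 (394), named after their values were seen. DNA replication and repair had 8 genes, led by clsp-1 and by rpa-2 (517), a subunit of the single-strand binding protein RPA.

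The secretory members are given briefly for comparison. COPII, the coat of vesicles leaving the ER, had 5 member genes of 10, which were sec-24.1 (1225), sar-1 (1071), sec-23 (919), tfg-1 (427) and sec-12 (252). ER-Golgi cargo receptors had 6 of 16, led by erd-2.1 (724), ile-1 (511), tmed-3 (488) and ergi-3 (443). COPI, the coat of retrograde vesicles, had 3 of 11, copa-1 (442), copb-2 (372) and copd-1 (289). The list of ER folding and calcium had 5 of 30, led by pdi-2 (961), pdi-6 (554), dnj-20 (470.3) and uggt-1 (305), and that of ER targeting and translocation had 3 of 24, among them tram-1 (1123.5) and dnj-29 (583). Tethering factors, SNAREs and Rab GTPases had 4 of 104, syx-5 (1135), nbet-1 (518), rab-11.1 (446) and rab-1 (251).

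Each of the remaining secretory lists had 1 or 2 members. They were cdc-48.1 (1002), an ATPase of ER-associated degradation (1 of 23), let-607 (690.3) in the list of the unfolded protein response (1 of 22), the reticulon gene ret-1 (645, 1 of 4), the oligosaccharyltransferase genes dad-1 (516) and ribo-1 (249) among glycosylation genes (2 of 61), and unc-11 (247), a clathrin adaptor gene (1 of 23). Outside these lists, genes with a secretory role by product at ranks up to 80 were mans-3 (1148), cyn-5, a prolyl isomerase gene (1036), F38A1.8 (877) and F21D5.7 (875), annotated with domains of the signal recognition particle and its receptor, rib-2 (842), an exostosin homologue, Y41C4A.32 (698), annotated as a coatomer subunit, and T14G8.3 (693).

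Regions between divergent genes put several of these roles side by side. A summit lay in the window of 1 gene at 138 members, of 2 genes at 49 and of 3 genes at 4. The promoter genes were on both strands at 51 of 280 members (18.2%, 14.1 to 23.2), at 10 of the 20 strongest regions (50%, 29.9 to 70.1) and at 124 of 1188 lower ones (10.4%, 8.82 to 12.3). The strongest such members with no secretory gene were those of rpl-1 with Y71F9AL.9, epc-1 with Y111B2A.12, vgln-1 with C08H9.16, eef-2 with clsp-1 and tasp-1 with K01G5.10. A summit between 2 starts cannot be given to either gene from these files.

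Most summits of the tier lay in intergenic sequence close to a start. The promoter share was 68.2% (191 of 280, 62.5 to 73.4), against 90% of the 20 strongest regions (69.9 to 97.2), 49.5% of the lower regions (46.7 to 52.3) and 30.6% of candidates outside the list. Intergenic summits numbered 200 (71.4%), beside 59.4% in the lower regions and 31.3% in candidates outside the list. Introns held 53 (18.9%), beside 26.9% and 29.2%. Coding exons held 12 (4.29%), beside 7.91% and 33.6%, and 12 summits lay in 5' UTRs and 3 in 3' UTRs. With regions near a tRNA gene, as defined below, left out, the promoter share was 68.7% in the tier and 52.9% in the lower regions.

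**Figure D3:**
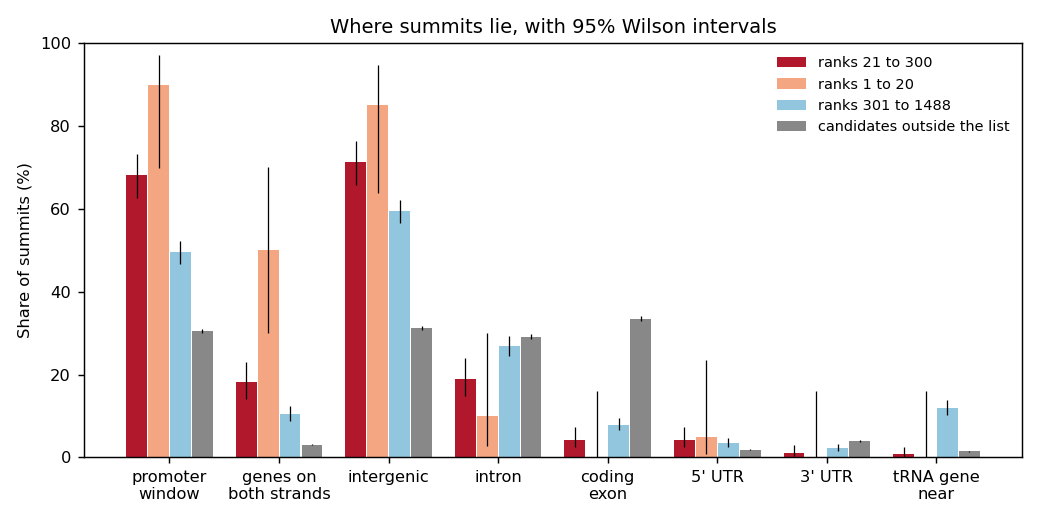
Share of summits (%) by annotation in ranks 21 to 300, in the 20 strongest regions, in the 1188 weaker regions of the list and in candidates outside it, with 95% Wilson intervals as lines. The promoter share is 68.2% in ranks 21 to 300, 90% in the strongest, 49.5% in the weaker regions and 30.6% outside the list.

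Short RNA genes were near few members. A tRNA gene lay within 500 bp of 2 of the 280 summits (0.714%, 0.196 to 2.57), against 141 of 1188 lower regions (11.9%, 10.2 to 13.8) and 1.46% of candidates outside the list. On replicate 1 alone it was 5 of 280 (1.79%), and on replicate 2 alone 2 of 280. A snoRNA gene lay within that distance of 12 members (4.29%) and of 66 lower regions (5.56%), and a miRNA gene of 3 members (1.07%) and of 13 lower regions (1.09%).

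Where a promoter gene existed, the summit was typically a short way upstream. Relative to the nearest of its promoter starts, the median summit position was -214 bp, with quartiles at -369 and -110.5 bp. It was much the same elsewhere, with -217.5 bp in the 20 strongest regions, -217 bp in the lower regions and -236 bp in candidates outside the list. Of the 191 summits of the tier 182 were upstream and 138 were within 400 bp upstream. The promoter window reaches 1000 bp upstream but only 200 bp downstream, which favours upstream positions by construction. Within the tier the median was -167 bp at regions with a secretory promoter gene (quartiles -325.5 and -89 bp). It was -231 bp at regions with other promoter genes only (quartiles -443 and -121 bp), and these ranges overlap. Many worm transcripts are trans-spliced, so an annotated start can lie downstream of where transcription begins.

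**Figure D4:**
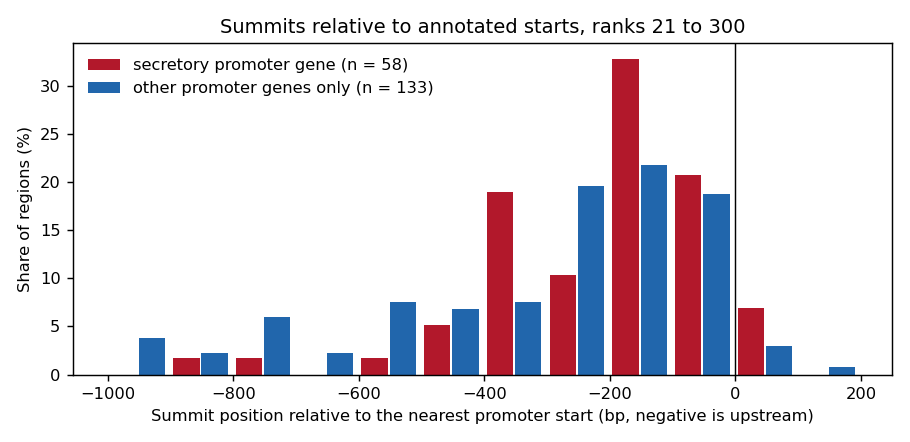
Position of the summit relative to the nearest promoter start (bp, negative is upstream) in 100 bp bins, as the share of the 58 regions with a secretory promoter gene (red) and of the 133 with other promoter genes only (blue). Both kinds have most summits within 400 bp upstream, and the median is -167 bp in red and -231 bp in blue.

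No promoter gene was found for 89 of the 280 members (31.8%). Of these 89, 36 were in introns, 44 were intergenic, and 47 had their nearest annotated start within 2000 bp. Their median signal was 351, beside 429 at regions with a secretory promoter gene and 365 at those with other promoter genes only. The 5 strongest were rank 21 on X in an intron, at 1169 bp from a serp-1.1 start (1299.7), rank 27 on X nearest to Y7A5A.24 (1154), rank 31 in an intron nearest to ppfr-1 (1087), rank 37 in an intron nearest to dlk-1 (979) and rank 48 on X at -2917 bp from B0302.5 (829). The dlk-1 summit was at 299 bp, outside the window on its downstream side. Ranks 31 and 49 are 2 summits of a single deposited interval at ppfr-1, within 2000 bp of the region at rank 20.

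Some members lay close together. Of the 280, 33 lay within 2000 bp of another member and 3 within 2000 bp of a region ranked 1 to 20, so neighbouring members may not be independent. They occupied 278 distinct intervals. Chromosome I held 61 members (21.8%) and X held 56 (20%), beside 14.4% and 25.2% of the lower regions. Without regions near tRNA genes X held 19.8% of the tier and 21.5% of the lower regions. Without the run of regions around let-607 chromosome I held 19.8% of the tier and 13.7% of the lower regions.

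The gene let-607 itself lies in that run, and the strain also carries the locus on the fosmid, in a copy number that no source used here gives. The let-607 region, chrI:6579909-6580141, had a signal of 690.3 at rank 63, with 336 in replicate 1 and 341 in replicate 2, and its summit was in the 5' UTR at 14 bp from the start. Thresholded regions linked by gaps under 10000 bp formed a run of 17 regions over 34871 bp, from 6554556 to 6589426, a gap length chosen after the data were seen. Of these 17, 7 were members, at let-607, dad-1 with tre-1, tmed-3, bag-1 and 3 sites without a promoter gene. No source used here gives the extent of the fosmid, and the part of fosmid copies in these signals was not tested. Without the run the promoter share was 68.5% and the share of member genes outside the fixed secretory lists was 87.8%, beside 86.8% with it.

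Both replicates held all 280 members among their candidates, and 221 (78.9%, 73.8 to 83.3) ranked 300 or better in both. The pooled list was made from the same reads, so high replicate ranks follow in part from the choice of members. Such members were 80 of 80 at ranks 21 to 100, 99 of the next 100 and 42 of the last 100, so the lower limit of the tier depends on the replicate. By kind of region the share was 84.5% (49 of 58, 73.1 to 91.6) with a secretory promoter gene. It was 78.9% (105 of 133, 71.3 to 85.0) with other promoter genes only and 75.3% (67 of 89, 65.4 to 83.1) with none. Those intervals overlap. The median pooled signal, by which members were chosen, had the same order (429, 365 and 351). Its part in these shares was not tested. Replicate ranks ran from 21 to 855 in replicate 1 and from 20 to 660 in replicate 2, and were within 2-fold of each other for 253 members. Signal was higher in replicate 2 at 247 of 280 members (88.2%), with a median log2 ratio of replicate 2 over replicate 1 of 0.36, and at 1045 of 1479 thresholded regions found in both (70.7%). Read depth is unknown, so this ratio cannot be read as a difference in occupancy.

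**Figure D5:**
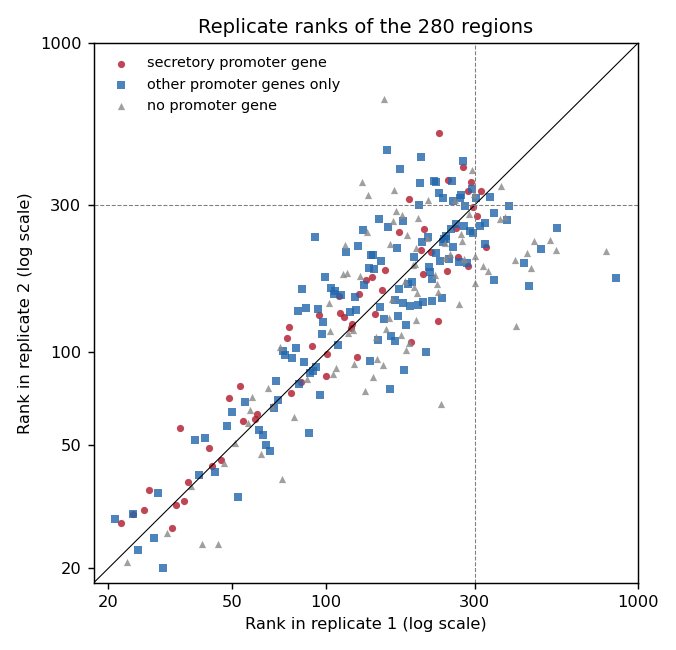
Rank of each of the 280 regions in replicate 1 (x axis) and replicate 2 (y axis), both on log scales, by kind of promoter gene, with the diagonal and dashed lines at rank 300. Points follow the diagonal, and 221 of the 280 lie at rank 300 or better in both replicates.

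The members whose replicate ranks differed most were mostly in the lower part of the tier. Better in replicate 2 were the second drap-1 region (rank 855 in replicate 1 and 174 in replicate 2), a region nearest to ptpn-22 (792 and 213), one nearest to dnj-20 (234 and 68), one nearest to let-607 in the run described above (408 and 122) and F41C3.8 (447 and 164). Better in replicate 1 were regions nearest to zip-2 (153 and 660), at ego-1 (157 and 452), nearest to vep-1 (130 and 357), at egg-5 (92 and 236) and nearest to ints-8 (136 and 322). Of these 10 regions, only the dnj-20 one was among the 100 strongest of the pooled list, at rank 97.

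Sequence elements were sought, on either strand, within 50 bp of each summit and in an equally wide flank centred 300 bp to its left. The motifs overlap, since TGACG is within TGACGTGG and TGACGTCA, and since these and CACGTG hold ACGT. In all, ACGT was in 127 of the 280 windows (45.4%, 39.6 to 51.2) and in 20.4% of their flanks, against 31.0% of windows in the lower regions and 22.7% in candidates outside the list. It was in 62.5% of windows at ranks 21 to 100 (51.5 to 72.3), in 40% of the next 100 (30.9 to 49.8) and in 37% of the last 100 (28.2 to 46.8). CACGTG was in 34 windows (12.1%, 8.82 to 16.5) and 1.79% of flanks, against 6.65% of lower windows and 2.90% of candidates. TGACGTGG was in 10 windows (3.57%) and 1 flank, against 1.43% of lower windows and 0.558% of candidates. By kind of region it was in 6 of 133 windows with other promoter genes only (4.51%, 2.08 to 9.49). With a secretory promoter gene it was in 2 of 58 (3.45%, 0.951 to 11.7), and those intervals overlap. TGACGTCA, the full cAMP response element, was in 1 window, nearest to fos-1 at rank 249, and in 0 flanks, against 0.758% of lower windows and 0.793% of candidates. In the right flank it was in 2 of 280 (0.714%), more than at the summits.

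Other sequences were counted beside those with the ACGT core. TGACG was in 26.8% of windows and 11.1% of flanks, against 20.3% of lower windows and 13.7% of candidates. AGACGCAG was in 25 windows (8.93%, 6.12 to 12.8) and 0 flanks, which allows a share of up to 1.35% by the Wilson upper limit, against 4.71% of lower windows and 1.40% of candidates. In the right flank AGACGCAG was in 3 of 280 (1.07%). GAGAGAGA was in 3.21% of windows and 2.14% of flanks, against 3.37% of lower windows and 1.56% of candidates. The median GC content of the windows was 47.5%, against 45.5% in the lower regions and 40.6% in candidates, and its part in these motif shares was not tested.

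The share of windows with ACGT was higher with a secretory promoter gene. It was in 39 of 58 windows with a secretory promoter gene (67.2%, 54.4 to 77.9) and in 52 of 133 with other promoter genes only (39.1%, 31.2 to 47.6), and those intervals do not overlap. With no promoter gene it was in 36 of 89 (40.4%). Secretory regions also had the higher median signal, and the part of signal in this difference was not tested. Among members below rank 100 the shares were 22 of 35 (62.9%, 46.3 to 76.8) and 32 of 99 (32.3%, with an upper limit of 42%). Within ranks 21 to 100 they were 17 of 23 (73.9%, 53.5 to 87.5) and 20 of 34 (58.8%, 42.2 to 73.6), and the intervals overlap. In the flanks ACGT was in 17.2% and 24.8% of windows, and the median GC content was 49% and 47.5%. Split by the fixed lists alone, ACGT was in 23 of 32 windows of the tier with a secretory gene (71.9%, 54.6 to 84.4) and in 68 of 159 with other promoter genes (42.8%, 35.3 to 50.5). In the lower regions, with the same split, it was in 21 of 42 windows with a secretory gene (50%, 35.5 to 64.5) and in 177 of 546 with other promoter genes (32.4%, 28.6 to 36.5).

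TGATAA is the core that GATA factors of the worm intestine and epidermis recognise. It was in 0 of 58 windows with a secretory promoter gene, which allows up to 6.21% by the Wilson upper limit, in 22 of 133 with other promoter genes only (16.5%, 11.2 to 23.8) and in 14 of 89 with none (15.7%). The windows of rpl-1, R10E11.5, vgln-1, rpb-8 and dct-11 are among the 22, as is the C24F3.2 window at rank 35. That C24F3.2 summit lies in a single deposited interval with the rank 30 summit, which counts as secretory through tram-1. The 0 of 58, and the 0 of 32 below, therefore depend on the edge of the promoter window. Split by the fixed lists alone, it was in 0 of 32 windows of the tier with a secretory gene, which allows up to 10.7%, and in 22 of 159 with other promoter genes (13.8%, 9.32 to 20.1), and those intervals overlap. In the lower regions, with the same split, TGATAA was in 6 of 42 windows with a gene of the fixed secretory lists (14.3%) and in 86 of 546 with other promoter genes (15.8%). Over all 280 windows it was in 12.9%, with 7.50% of left flanks and 10% of right flanks, against 16.3% of lower windows and 8.87% of candidates. These splits by promoter gene were chosen after the motif counts were seen.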

How the data were processed

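ChIP-seq region lists of LET-607-GFP were analysed for 2 biological replicates, 1 group in all. Per the labels, the lists are on the ce11 assembly. The authors deposited candidate lists for each replicate and for the pooled reads, and a thresholded list of 1488 regions chosen by the irreproducible discovery rate (IDR) from these. The replicate lists held 30000 and 26493 candidates and the pooled list 30000. The deposited signal value is the authors' peak caller's score, and the deposited −log10 q-value comes from the authors too. The authors also deposited the summit's offset from the region start, another value used here. The aligner and peak caller are unknown, being not given in the sources used here. Depth is unknown, because the lists hold no read counts; the control was not analysed here.

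Regions were ranked by the deposited signal and ranks 21 to 300 kept. Motifs were sought in 101 bp summit windows. Genes, starts and annotation classes came from Ensembl release 115, with protein-coding features first and coding exons before UTRs, introns and intergenic sequence. Sequence came from the RefSeq FASTA of the matching WBcel235 assembly. RefSeq products, matched by symbol or locus tag for 238 of 242 genes, were read for roles, and roles were then assigned by hand. The 35 gene lists, 11 of them secretory, are name patterns. The pattern for chemoreceptors was corrected after the files were read, because it matched other families. The members, lists and motifs were chosen with earlier results of these data known. A member was matched to the strongest replicate region whose interval holds its summit.

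Named genes were those outside the secretory lists at ranks 21 to 80, up to 4 strongest members of each list, let-607, the 5 members with the most unequal replicate ranks in each direction, the strongest elements outside chromosome I, with CACGTG shown for the strongest regions that have promoter genes but no secretory one, the 5 strongest members without a promoter gene, the ranks on either side of both limits, and the 5 strongest divergent regions without a secretory gene; further genes are named as chosen after their values were seen. A region that this rule names is not reported here. Shares have 95% Wilson intervals (scipy 1.17.1, Python 3.11.15), and figures used matplotlib 3.10.9. The counting steps were tested on simulated data. Alternatives changed the promoter window, the gene assignment, the rank range, the motif window and flank, the tRNA distance, the gene biotypes of the annotation and the replicate matching, and used each replicate alone.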

Additional observations from a re-analysis of the deposited data

How the results depend on the processing

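No paired analysis was possible because there is only 1 group. Of the values recomputed for the questions of the report, 93 stayed within the Wilson interval of the main value and 15 fell outside it. The interval of the recomputed value was not used for this count. By construction some values can move in 1 direction only. Among them are the promoter share with a changed promoter window, motif shares with a wider motif window and the intergenic share with added biotypes. The share of genes outside secretion with added roles and the replicate share with a doubled rank limit are others. Shares of member genes with a changed promoter window are not, because the number of member genes changes too. The cause of the other changes was not tested. The promoter share was 56.8% with a window of 500 to 100 bp and 78.6% with 2000 to 500 bp, 65.7% on replicate 2 alone and 67.5% on replicate 1 alone. Genes outside secretion were 75.6% when roles by product were added. Intergenic summits were 59.6% with all gene biotypes. At ranks 21 to 150, ACGT was in 56.2% of windows, and 100% of members ranked 300 or better in both replicates. There GAGAGAGA was in 1.54% (0.423 to 5.44) and TGACGTCA in 0 (up to 2.87%), and 0 members lay near a tRNA gene (up to 2.87%). Those intervals of GAGAGAGA, TGACGTCA and tRNA genes include the main values. With the limit on replicate rank doubled, 98.9% of all members passed. With windows reaching 100 bp to either side, ACGT was in 62.1%, TGACG in 41.4%, TGATAA in 26.4%, AGACGCAG in 14.3% and GAGAGAGA in 8.57%, which the wider window allows by construction. In the right flank GAGAGAGA was in 0.714%, TGACGTCA in 0.714%, AGACGCAG in 1.07% and TGATAA in 10%. There ACGT was in 20.4%, TGACG in 9.64%, CACGTG in 1.79% and TGACGTGG in 0.357%. On single replicates the other shares stayed within the counting intervals, with ACGT from 40% to 43.6%. Settings without the let-607 run, without members near tRNA genes and with roles by product were chosen after the data were seen. Unknown depth and 1 transgenic line limit all values.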
